A study of Mus musculus with 45 samples.

Results

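The 10 circadian clock genes described here are Clock, Npas2, Per1, Per2, Per3, Cry1, Cry2, Nr1d1, Nr1d2 and Dbp, followed in adipocytes of 45 mice. They were taken as every probe set on the array whose single annotated gene symbol is 1 of these 10, which gave 23 of 45037 probe sets and 10 of the 18193 genes with a probe set of their own. The study profiled RNA of isolated fat cells on Affymetrix mouse arrays, 1 array per mouse, in female C57BL/6 mice on a Western (high-fat) or chow diet. Fat cells came from the pooled parametrial and periovarian fat of each mouse. All mice lacked ApoE. D mice (IR+/- IRS1+/- ApoE-/-, called Dhet in the labels) also carried 1 inactive copy each of the insulin receptor and insulin receptor substrate 1 genes, and E mice (ApoE-/-) did not. Diets began at 8 weeks of age. The groups were D mice on Western diet for 16 weeks (DW16, n = 9) or chow for 16 weeks (DC16, n = 5), D mice on Western diet for 8 weeks (DW8, n = 5) or chow for 8 weeks (DC8, n = 7), E mice on Western diet for 16 weeks (EW16, n = 8) or chow for 16 weeks (EC16, n = 5), and E mice on Western diet for 8 weeks (EW8, n = 6). By the study's methods all mice were random-fed and killed within one fixed morning window, and the hour of each mouse within it was not given in the sources used here.

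The clock is a feedback loop of transcription. CLOCK, or its relative NPAS2, pairs with BMAL1, the product of Arntl, and switches on the Per, Cry, Nr1d and Dbp genes through E-box sequences. PER and CRY proteins then repress that pair, the nuclear receptors made from Nr1d1 and Nr1d2 (REV-ERB alpha and beta) repress Arntl and Npas2 through RORE sequences, and DBP drives genes with D-box sequences, Per3 among them. In mouse peripheral tissues, fat included, Arntl and Npas2 transcripts therefore peak at the opposite time of day from those of Dbp, Nr1d1, Nr1d2 and Per genes, with Cry1 later than the rest. A single killing per mouse, in the same window of the morning, gives 1 point on this daily curve, so the data hold the genes' relation to each other from mouse to mouse and not a time course.

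Such elements can be looked for in the promoters. The RefSeq promoter set used here (GRCm38.p6) held a promoter, taken as 250 bases before to 50 after the start, for 9 of the 10 genes. It had no entry for Per2. Both strands were searched for the E-box CACGTG, the E-prime box CACGTT, the D-box TTATGTAA and the RORE. An E-box lay in 7.15% of all 32851 promoters, an E-prime box in 4.68%, a D-box in 0.938% and a RORE in 0.384%. Of the 9 genes, 5 had at least 1 of the motifs and 4 (Clock, Npas2, Nr1d2 and Dbp) had none in this window. The stretches with a motif are printed 5′ to 3′ on the strand of the gene, with the motifs in capitals. AACGTG is the E-prime box read on the other strand, and the Arntl stretch is shown because the Nr1d receptors act on such elements. Per3 had 2 D-boxes, 205 and 158 bases before its start (chr4:151044806-151044880, minus strand). The Per1 E-box lay 166 bases before the start (chr11:69098756-69098815, plus strand). Cry1 had an E-box 60 and an E-prime box 79 bases before its start (chr10:85185082-85185141, minus strand), Cry2 an E-prime box 166 bases before (chr2:92434203-92434262, minus strand) and Nr1d1 an E-prime box 28 bases before (chr11:98775388-98775417, minus strand). The Arntl RORE lay 27 bases past the start of the second of its 2 promoters (chr7:113207527-113207556, plus strand). A match describes the letters only.
Per3: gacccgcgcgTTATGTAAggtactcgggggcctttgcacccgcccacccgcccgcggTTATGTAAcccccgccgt
Per1: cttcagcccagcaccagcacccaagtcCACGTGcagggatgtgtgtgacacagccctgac
Cry1: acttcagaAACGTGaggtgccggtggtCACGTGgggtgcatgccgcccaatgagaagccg
Cry2: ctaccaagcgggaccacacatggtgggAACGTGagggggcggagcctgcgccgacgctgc
Nr1d1: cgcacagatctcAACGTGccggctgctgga
Arntl: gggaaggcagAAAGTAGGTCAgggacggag

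Values are the deposited log2 RMA values, in which 1 unit is a 2-fold difference. The 10 arrays with the lowest 95th percentiles were set apart as having a narrow range of values. These were DW16 mice 1 to 7 and EW16 mice 1 to 3, at 10.14 to 10.85, against 10.95 to 11.14 on the other 35 arrays. The range was graded: DW16 mice 1, 5 and 7 and EW16 mouse 1, at 10.79 to 10.85, lay nearer to the other arrays than to the rest of the 10. The narrow-range arrays held 7 of the 9 DW16 and 3 of the 8 EW16 mice and no others. Array range and group therefore cannot be fully told apart. The main results for the 10 genes are given with and without them. In the samples labelled adipocytes, Adipoq averaged 14.42 and Fabp4 14.59, both above the 99.9th percentile of the array, so defining adipocyte markers were among the brightest probe sets. Markers of other cells were measured too, and ranged widely within a list. Fibroblast and progenitor markers averaged 8.23 (Pi16) to 13.66 (Dcn), and macrophage markers 4.14 (Itgam) to 11.60 (Csf1r). Lymphocyte markers averaged 3.87 (Cd3g) to 6.37 (Cd3e), apart from Ighm of B cells at 11.13. Endothelial markers averaged 7.34 (Pecam1) to 10.09 (Kdr), and mesothelial ones 6.23 (Krt19) to 8.96 (Upk3b). The 4 epithelial markers lay between 3.56 (Cdh1) and 7.50 (Epcam). In bulk RNA fewer cells of a type and less RNA per cell cannot be told apart.

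Dbp, a transcription factor that carries the clock's output, had the widest spread between mice of all 45037 probe sets. Over the 35 mice on arrays of full range, its SD within groups was 1.72 on the log2 scale (rank 1), and its other probe set (1418174_at) had 1.55 (rank 3). In DC16 mice 1 to 5 Dbp was 8.09, 12.44, 8.84, 9.42 and 8.58. In EC16 mice it was 10.77, 12.52, 8.18, 7.03 and 7.07. Mouse 2 of each of these chow groups was the highest. In DW8 mice it was 9.87, 8.49, 11.67, 11.57 and 11.65, so mice 3 to 5 were the high ones. The SDs were 1.72 in DC16, 2.44 in EC16 and 1.43 in DW8, and in the larger groups 2.05 in DC8, 1.31 in EW8, 1.16 in DW16 and 0.94 in EW16. The lowest, median and highest values of the larger groups were 7.89, 9.38 and 11.28 in DW16, 7.55, 9.91 and 12.27 in DC8, 8.26, 9.26 and 10.93 in EW16, and 8.15, 9.11 and 11.63 in EW8. Every group overlapped every other.

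The Period genes, whose proteins repress CLOCK and BMAL1, followed in width. Per3 had an SD of 0.94 within groups (rank 32) and Per2 0.92 (rank 38), and Per1, for which rapid induction by outside signals is also known, 0.43 (rank 1773). Per3 was 8.12, 8.59, 5.47, 5.31 and 5.46 in EC16 mice 1 to 5, the same 2 mice being high as for Dbp, and 5.96, 8.35, 6.28, 6.03 and 6.47 in DC16 mice. Per2 was 8.55, 8.95, 6.54, 6.32 and 7.04 in the EC16 mice and 7.61, 9.43, 6.88, 6.15 and 7.02 in the DC16 mice. Mouse 2 was again the highest in each. Nr1d1 and Nr1d2 had SDs of 0.59 and 0.58 (ranks 359 and 419), and Cry1, a repressor with a late daily peak, 0.45 (rank 1512). Cry2, the other cryptochrome, varied less, at 0.26 (rank 10728).

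On the other limb, Arntl, the partner of CLOCK and not itself 1 of the 10, had an SD of 0.81 (rank 57), and Clock, known for a shallow rhythm in many tissues, 0.47 (rank 1169). Arntl was low where Dbp was high: it was 8.73, 6.89, 8.69, 8.39 and 8.78 in DC16 mice 1 to 5 and 8.14, 6.72, 8.60, 9.06 and 9.35 in EC16 mice. Npas2, which can stand in for Clock, had 2 probe sets, with means at the 45.6th and 26.8th percentiles of the array. The one with the higher mean (1421036_at) ran from 4.92 to 5.73 over all 45 mice with an SD of 0.16 (rank 29438), and the other (1421037_at) had an SD of 0.38 (rank 3179).

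**Figure D1:**
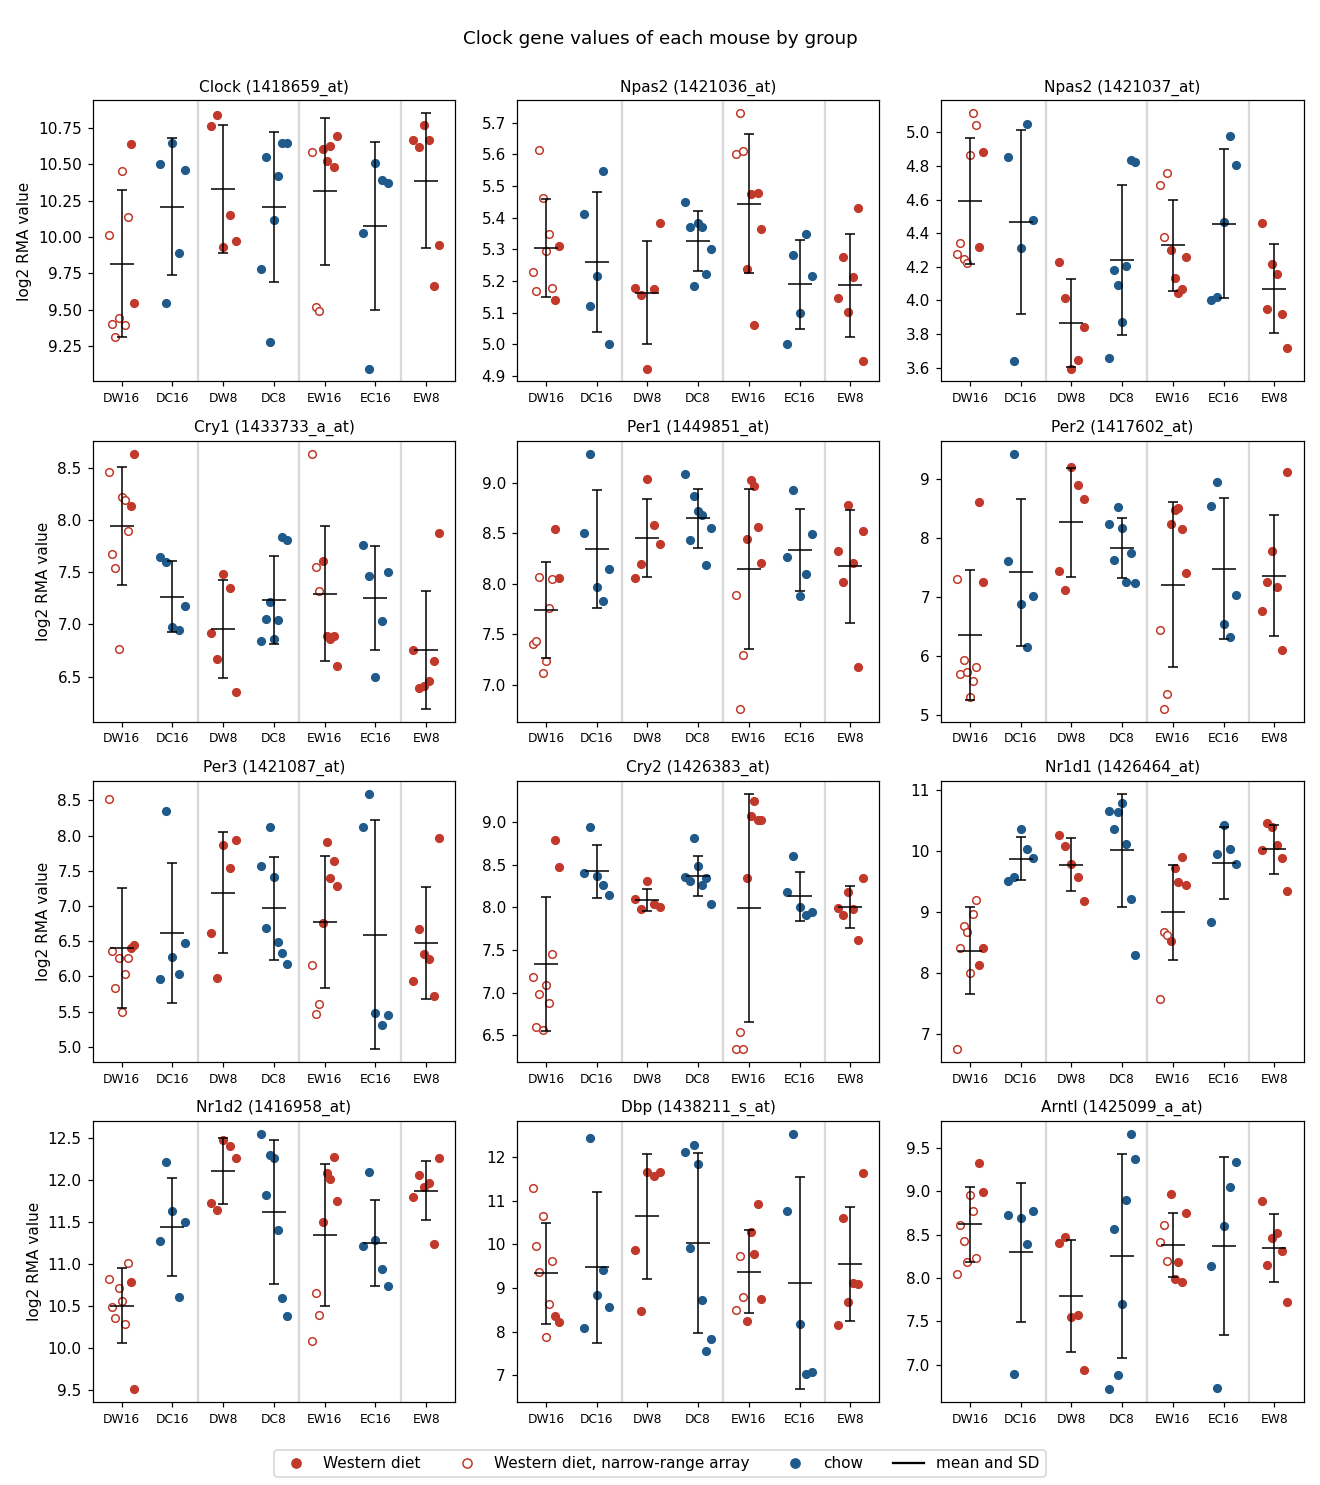
Log2 RMA values of each mouse (vertical axis) in the 7 groups (horizontal axis) for the 10 clock genes, both Npas2 probe sets and Arntl, with the group mean and SD as bars and narrow-range arrays as open circles. Dbp spans 7.03 to 12.52 within EC16, and the 7 narrow-range DW16 mice lie at 6.56 to 7.45 for Cry2, below every DC16 mouse.

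To ask whether genes of opposite phase ran against each other from mouse to mouse, each value was taken relative to its group mean and correlated over the 35 mice on arrays of full range, with 100000 permutations of the mice within groups (two-sided) and Benjamini-Hochberg adjustment over the 55 pairs of the 10 genes and Arntl. Clock, Npas2, Cry1 and Arntl were set as one phase and the other 7 genes as the opposite one, from textbook knowledge, which gave 28 phase-opposed and 27 same-phase pairs. Of the 28 opposed pairs, 22 had a negative r and 6 a positive one (median -0.34), and 11 negative and 1 positive passed an adjusted p under 0.05. Of the 27 same-phase pairs, 21 were positive (median 0.64), and 16 positive and 1 negative passed. Without Arntl, 5 negative and 1 positive of 21 opposed pairs passed, and 15 positive and 1 negative of 24 same-phase pairs. Genes share each mouse's RNA and array, so the pairs are not independent of each other.

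Arntl and Dbp were the most strongly opposed pair, with r = -0.943 (permutation p = 1e-05, adjusted p = 4.58e-05, rho = -0.956), and r = -0.938 once the 2 mice with the most extreme Arntl were dropped. A p of 1e-05 is the smallest that 100000 permutations can give. Of all 45037 probe sets none had a lower r with Dbp than that of Arntl. Arntl also ran against Per3 (r = -0.839, rho = -0.882), Nr1d2 (r = -0.785), Per2 (r = -0.664), Cry2 (r = -0.638) and Per1 (r = -0.543, adjusted permutation p = 0.00133). Of its 7 opposed partners the one that did not pass was Nr1d1, at r = -0.288 (permutation p = 0.229, adjusted p = 0.300, rho = -0.197). Clock itself ran against Dbp (r = -0.757, rho = -0.743) and Per3 (r = -0.700, rho = -0.678), and less closely against Per2 (r = -0.477, adjusted permutation p = 0.0280) and Cry2 (r = -0.407, adjusted permutation p = 0.0409). By ranks Clock with Per2 (rho = -0.415, adjusted permutation p = 0.0734) and with Cry2 (rho = -0.294, adjusted permutation p = 0.191) did not pass. The last of these, Clock and Cry2, shrank to r = -0.195 once the 2 mice with the most extreme Clock were dropped.

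Among same-phase genes Per3 and Dbp moved together most closely, with r = 0.922 (permutation p = 1e-05, adjusted p = 4.58e-05, rho = 0.910) and r = 0.893 without 2 mice. Per2 followed Per3 (r = 0.872) and Per1 (r = 0.800), and Nr1d2 followed Dbp (r = 0.790, rho = 0.804). Clock and Arntl, whose proteins form the activating pair, correlated at r = 0.813 (adjusted permutation p = 4.58e-05, rho = 0.797). Cry2 moved with the Period genes and Dbp, at r of 0.698 with Per1, 0.722 with Per2, 0.729 with Per3 and 0.680 with Dbp. All 15 pairs among Per1, Per2, Per3, Cry2, Nr1d2 and Dbp passed, the lowest being Per1 with Dbp at r = 0.530 (adjusted permutation p = 0.00436).

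**Figure D2:**
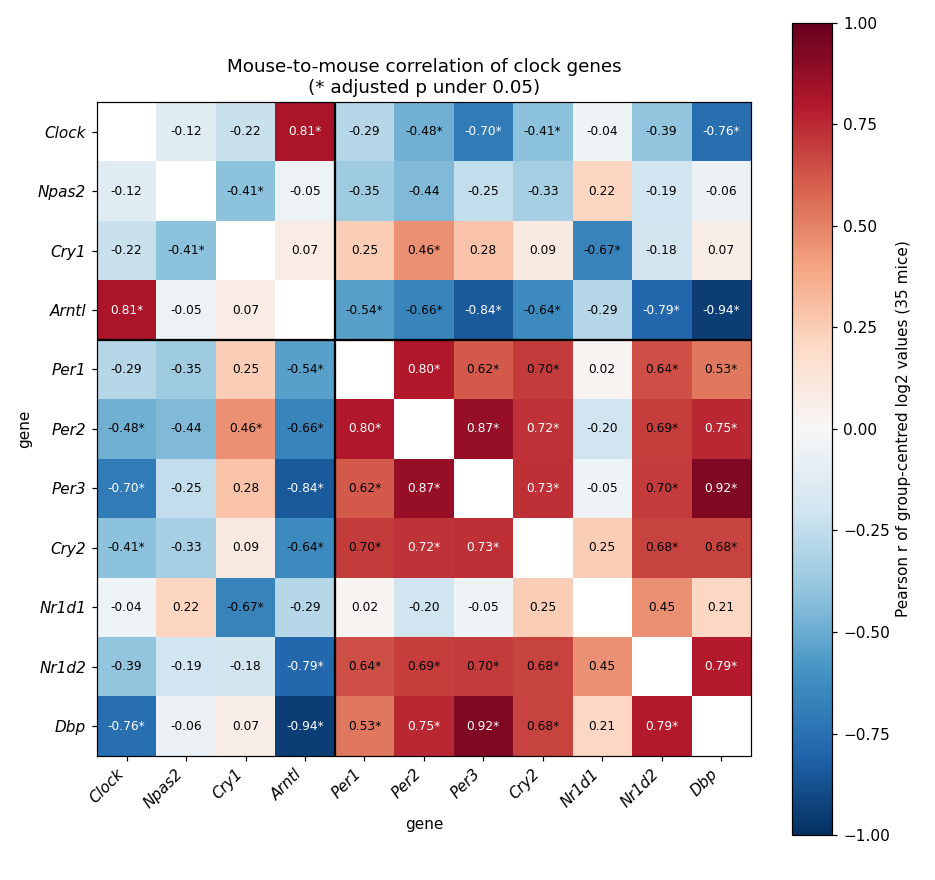
Pearson r of group-centred log2 values over 35 mice for each pair of 11 genes (colour and number, from -1 in blue to 1 in red), with a star where the adjusted permutation p is under 0.05 and black lines between the 2 phases. The block of Per1, Per2, Per3, Cry2, Nr1d2 and Dbp is red throughout, the Arntl row is blue against it (-0.54 to -0.94), and the Nr1d1 and Cry1 rows differ from their neighbours.

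Nr1d1 and Cry1 did not keep to these blocks. Nr1d1, known to peak earlier in the day than the Period genes, had no pair that passed within its set phase: r was 0.208 with Dbp (permutation p = 0.342, adjusted p = 0.409), 0.0175 with Per1, -0.199 with Per2 and -0.0463 with Per3, and 0.454 with its relative Nr1d2 (adjusted permutation p = 0.0605). The gene it ran against was Cry1, at r = -0.668 (permutation p = 7e-05, adjusted p = 0.000183, rho = -0.638), and r = -0.619 without 2 mice. Cry1, in turn, showed little relation to Arntl (r = 0.0716) or Dbp (r = 0.0698), and correlated positively with Per2 (r = 0.458, adjusted permutation p = 0.0304), the 1 opposed pair that passed in the other direction. By ranks Cry1 with Per2 gave rho = 0.315 (adjusted permutation p = 0.161), which did not pass.

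Inside single groups 3 of the pairs can be described in DC8 and EW8, the groups of 6 or more mice on full-range arrays. The pairs were picked for their r over the 35 mice, which include these 13, so the values are no independent support and no test is given. Arntl with Dbp had r = -0.973 in DC8 (n = 7, rho = -0.964) and -0.943 in EW8 (n = 6, rho = -0.829). Per3 with Dbp had r = 0.953 in DC8 (rho = 0.964) and 0.888 in EW8 (rho = 0.714). Cry1 with Nr1d1 had r = -0.901 in DC8 (rho = -0.786) and -0.923 in EW8 (rho = -0.943).

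**Figure D3:**
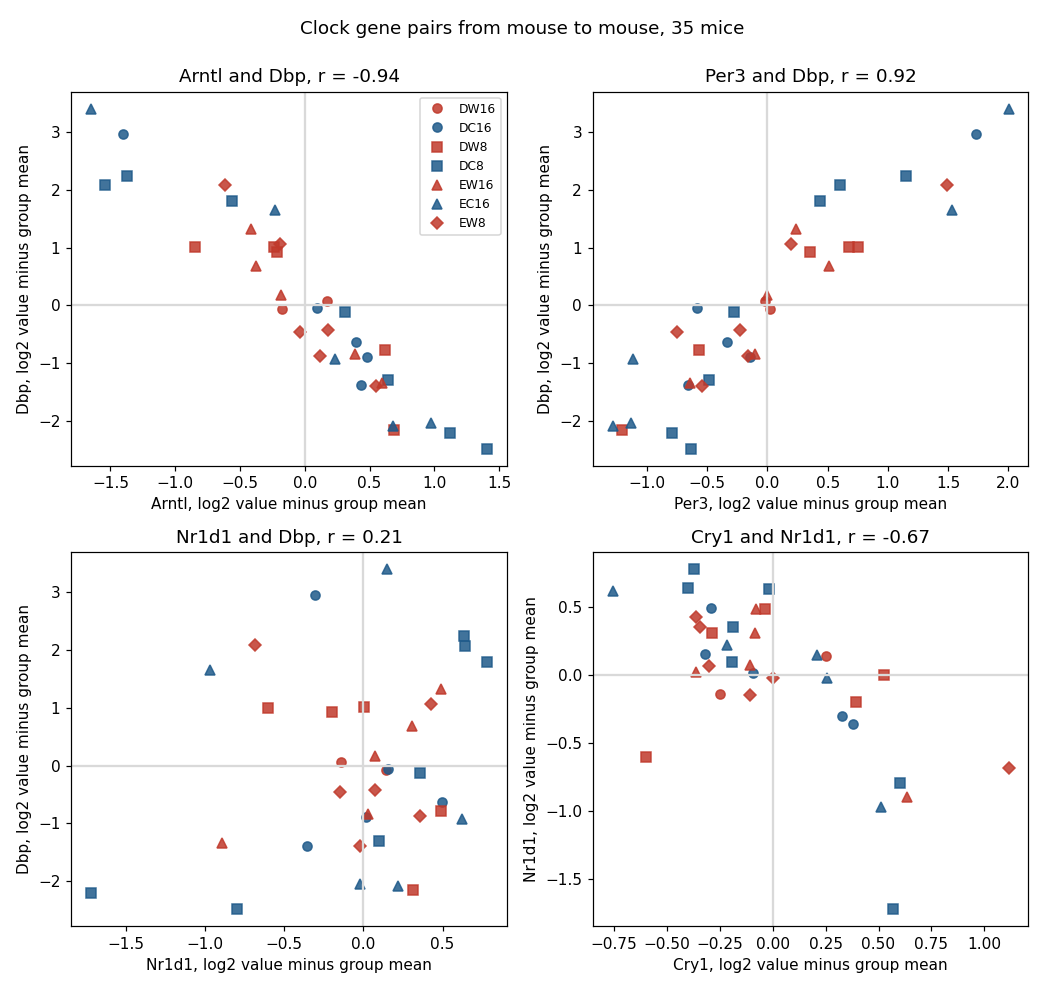
Group-centred log2 values of 4 gene pairs in 35 mice, 1 point per mouse, with a colour for diet (red Western, blue chow) and a shape for genotype and weeks. Arntl and Dbp (r = -0.943) and Per3 and Dbp (r = 0.922) lie along a line, Nr1d1 and Dbp (r = 0.208) do not, and Cry1 and Nr1d1 (r = -0.668) slope down with 1 DW8 mouse low in both.

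On the 10 narrow-range arrays no pair of either phase passed after adjustment. Arntl with Dbp had r = -0.734 there (permutation p = 0.0332, adjusted p = 0.400), and -0.334 with the 2 most extreme mice for Arntl dropped. Per2 with Per3 had r = 0.904 (permutation p = 0.00634, adjusted p = 0.349), and 0.422 with the 2 most extreme mice for Per2 dropped. Per3 with Dbp had r = 0.692, and -0.0020 with the 2 most extreme mice for Per3 dropped. Clock with Arntl was at 0.0772. Of the 28 opposed pairs 17 were negative (median -0.13), and of the 27 same-phase pairs 17 were positive (median 0.08).

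The 2 Npas2 probe sets differed in their relations. The one with the higher mean, 1421036_at, had r = -0.0491 with Arntl and -0.0603 with Dbp over the 35 mice, and passed with Cry1 alone (r = -0.411, adjusted permutation p = 0.0441). The other, 1421037_at, ran with Arntl (r = 0.771, rho = 0.759, adjusted permutation p = 8.68e-05) and Clock (r = 0.511) and against Nr1d2 (r = -0.831), Dbp (r = -0.823), Per3 (r = -0.765) and Per2 (r = -0.713), and showed none of this with Nr1d1 (r = -0.191, adjusted permutation p = 0.415) or Cry1 (r = -0.0017). The probe sets correlated with each other at r = 0.270. The probe sets of Dbp correlated at 0.985, those of Nr1d2 at 0.712, those of Clock with the chosen one at 0.639 to 0.831, those of Per2 at 0.576 and 0.795, and those of Per3 at 0.243 to 0.746.

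As a description, the genes outside the 10 that were most like 4 of the members over the 35 mice were listed by r. Nearest to Dbp were Tef (r = 0.943), which encodes another D-box factor of the same family, Slc5a6 (0.893), a vitamin transporter, Nrg4 (0.890), a growth factor secreted by fat, Carhsp1 (0.831) and Crtac1 (0.799), and farthest were Arntl (-0.943), Dtx4 (-0.937) and Spon2 (-0.860). Among members, Per3 (0.922) stood between Tef and Slc5a6. Per3 had almost the same company, with Tef (0.948), Crtac1 (0.882), Carhsp1 (0.874), Nrg4 (0.873) and Hlf (0.861), the third factor of the Dbp family, nearest and Spon2 (-0.883), Dtx4 (-0.851) and Xrcc3 (-0.843) farthest, and the members Dbp (0.922) and Per2 (0.872) within the same range. For Nr1d1 the highest was 1810013L24Rik (0.669), followed by Rasa3, Yeats2, Gdap1 and Tmem216 at 0.630 to 0.636, and the lowest outside the 10 were Mapre2 (-0.739), Mapk14 (-0.701) and Il17d (-0.668), with the member Cry1 (-0.668) the third lowest of all 45037 probe sets. Npas2 on 1421036_at was nearest to Zfp703 (0.786), Eftud2, Ndst4, Cox8c and Gm15423 and farthest from Serinc3 (-0.722), Etv5 and Akap8, none of them a listed clock gene. On 1421037_at it was nearest to Dtx4 (0.857), Col4a1, Arntl (0.771), Col6a2 and Plxnb1 and farthest from Osbpl9 (-0.838), Carhsp1 and Slc5a6.

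By group means, DW16 was the lowest of the 7 groups for 7 of the 10 genes (Clock, Per1, Per2, Per3, Cry2, Nr1d1 and Nr1d2) and the highest for 1, Cry1. Without the narrow-range arrays, which leave 2 DW16 mice, it was the lowest for 4 (Per3, Nr1d1, Nr1d2 and Dbp) and the highest for Cry1. The share of all probe sets with DW16 as the lowest group was not counted. Whether the low place of DW16 is particular to clock genes was therefore not tested. Over all probe sets above the median level, the median difference of DW16 minus DC16 was -0.22 with all arrays. For Nr1d1 the means were, from low to high, 8.37 in DW16, 8.99 in EW16, 9.78 in DW8, 9.80 in EC16, 9.87 in DC16, 10.01 in DC8 and 10.03 in EW8, and the last 5 lie closer together than the SD within any of them (0.35 to 0.93). For Nr1d2 they were 10.51 in DW16, 11.25 in EC16, 11.35 in EW16, 11.44 in DC16, 11.62 in DC8, 11.88 in EW8 and 12.11 in DW8, neighbours past the first differing by less than the SDs of 0.35 to 0.86. Cry1 had the reverse place, with 6.76 in EW8, 6.95 in DW8, 7.24 in DC8, 7.25 in EC16, 7.27 in DC16, 7.29 in EW16 and 7.94 in DW16 (SDs of 0.34 to 0.65). Clock had means of 9.82 in DW16 and 10.08 to 10.39 in the other groups. Its lowest, median and highest values were 9.31, 9.55 and 10.64 in DW16, 9.27, 10.42 and 10.65 in DC8, 9.49, 10.55 and 10.70 in EW16 and 9.66, 10.64 and 10.77 in EW8. Every group held mice under 10 and mice over 10 for Clock. Per1 was lowest on average in DW16, at 7.74 ± 0.47 (SD, n = 9), beside 8.14 to 8.65 in the other groups, and the 3 narrow-range EW16 mice had it at 7.89, 6.76 and 7.29, under the other EW16 mice (8.20 to 9.02).

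The main comparison of the study was Western against chow diet in D mice at 16 weeks. Of the 23 probe sets of clock genes 1 was called by limma (adjusted p under 0.01 over all probe sets), that of Nr1d1, which was lower in DW16, against 3.43% of all probe sets called and 2.63% called lower. At an unadjusted p under 0.05 the count was 8 of 23, against 37.9% of all, and SAM at a q under 0.01 called 3, all lower, against 17.8%. The 10 genes by their brightest probe sets were higher in DW16 for 2 and lower for 8 (median -0.50), and the median of all 23 probe sets was -0.21, beside 0.04 over all probe sets and -0.22 over the brighter 50% of them. These counts are near or under the background.

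Nr1d1 had a lowest, median and highest value of 6.75, 8.41 and 9.19 in DW16 mice, against 9.51, 9.57, 10.37, 10.02 and 9.89 in DC16 mice. Every DW16 mouse was below every DC16 mouse, as in 1 of the 23 clock gene probe sets and 3.63% of all probe sets. The means were 8.37 ± 0.72 (SD, n = 9) in DW16 and 9.87 ± 0.35 (SD, n = 5) in DC16, a log2 difference of -1.51 (SE 0.31, limma adjusted p = 0.00824), or 2.84-fold lower in DW16. The 2 DW16 mice on full-range arrays were at 8.13 and 8.41, and with them alone the difference was -1.60 (SE 0.23, limma unadjusted p = 8.87e-05, adjusted p = 0.155, n = 2 against 5). The call was near the threshold: it was lost in 10 of 14 fits that left out 1 mouse (adjusted p of 0.0128 to 0.0253), those without any of DW16 mice 2 to 6 or any DC16 mouse, and after quantile normalization of all arrays (-1.14, adjusted p = 0.0425).

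Nr1d2, the second REV-ERB gene, had a log2 difference of -0.94 (SE 0.25, limma adjusted p = 0.0198), with a lowest, median and highest value of 9.51, 10.56 and 11.02 in DW16, against 11.27, 12.21, 11.63, 10.60 and 11.50 in DC16. The groups overlapped at 1 DC16 mouse. Cry1 differed the other way, by 0.68 (SE 0.25, limma adjusted p = 0.0652), with 6.76, 8.13 and 8.64 in DW16, against 7.65, 7.59, 6.97, 6.94 and 7.17 in DC16. The 2 DW16 mice on full-range arrays had Cry1 at 8.13 and 8.64, above every DC16 mouse, and without the narrow-range arrays the difference was 1.12 (SE 0.24, limma adjusted p = 0.328).

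Cry2 and Per2 differed between the narrow-range and the other arrays. Cry2 lay at 6.56 to 7.45 on the narrow-range DW16 arrays and at 8.79 and 8.48 on the remaining DW16 arrays, against 8.40, 8.95, 8.37, 8.26 and 8.15 in DC16. Its difference was -1.09 over all mice (SE 0.33, limma adjusted p = 0.0328) and 0.21 without the narrow-range arrays. Per2 lay at 5.30 to 7.30 on the narrow-range DW16 arrays and at 8.61 and 7.25 on the remaining ones, against 7.61, 9.43, 6.88, 6.15 and 7.02 in DC16, and its difference was -1.06 over all mice (limma adjusted p = 0.182) and 0.51 without those arrays. The sign of both values changed with the narrow-range arrays. Of the other genes Per1 differed by -0.61 (limma adjusted p = 0.101), Clock by -0.39 (0.255), Per3 by -0.21 (0.746), Dbp by -0.14 (SE 0.68, 0.895) and Npas2 by 0.04. Without the narrow-range arrays Per1 differed by -0.0473, Clock by -0.12, Per3 by -0.19, Dbp by -1.18 (SE 0.99) and Npas2 by -0.0356.

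Other lists also differed in the same comparison, some of them lower and some mixed or higher. All 13 immediate early genes were lower in DW16 (median -1.01, 0 called by limma, 11 at an unadjusted p under 0.05), with a mean list level of 10.47 to 12.45 in DW16 mice, against 11.95 to 12.58 in DC16 mice. All 6 endothelial markers were lower (median -1.02, 1 called, list level 7.79 to 9.52 in DW16 and 9.22 to 9.67 in DC16), as were all 5 mesothelial markers (median -0.95, 1 called, 5.73 to 7.91 and 6.53 to 8.06) and 6 of 8 adipocyte markers (median -0.50, 11.72 to 13.07 and 12.65 to 13.13). Macrophage markers were lower for 6 of 7 (median -0.21, 1 called) and glucocorticoid-induced genes for 5 of 8 (median -0.20). Lymphocyte markers were higher for 3 and lower for 3 (median -0.06), with 1 called higher and 1 called lower. Fibroblast and progenitor markers were also higher for 3 and lower for 3 (median -0.26, 0 called). Epithelial markers were higher for 3 of 4 (median 0.27). On the narrow-range arrays the immediate early list lay at 10.47 to 11.82, against 11.95 to 12.92 on the other arrays. The part of these in the Nr1d1 result was not tested.

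**Figure D4:**
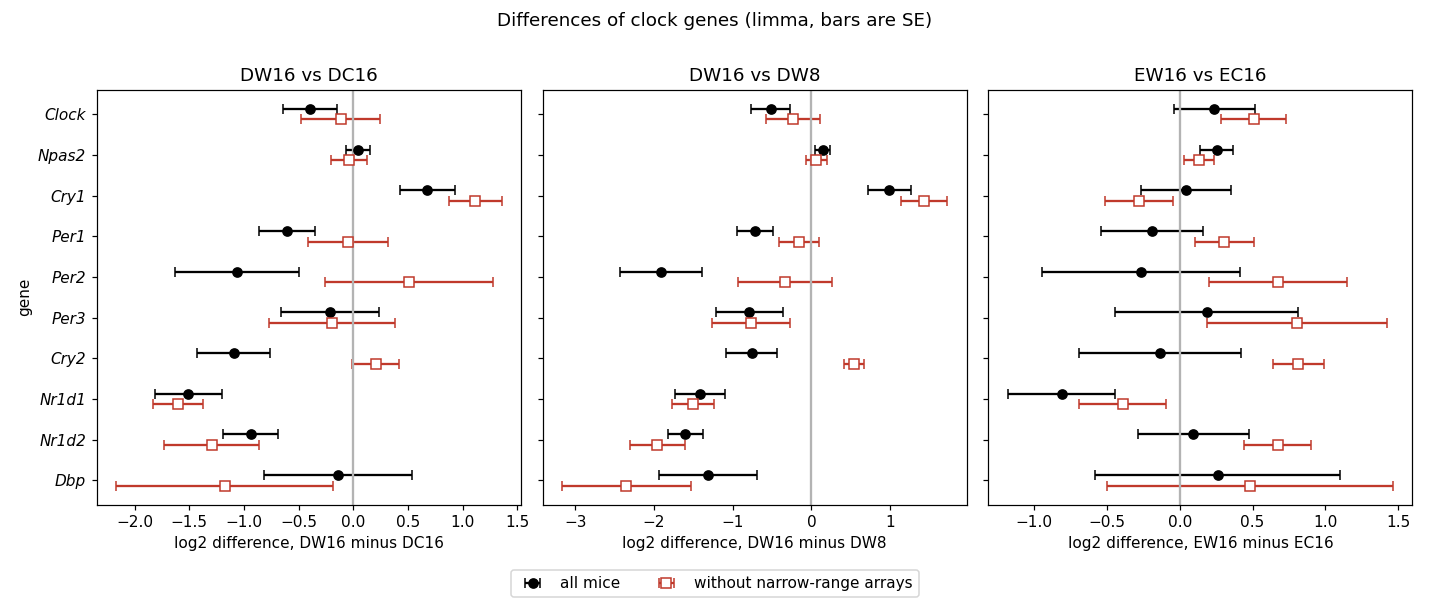
Log2 differences (horizontal axis, bars are SE) of the 10 clock genes (vertical axis) for DW16 minus DC16, DW16 minus DW8 and EW16 minus EC16, over all mice (black) and without the narrow-range arrays (red). Nr1d1 lies below 0 in every panel with and without those arrays (-1.51, -1.41 and -0.81 over all mice), while Cry2 changes side in all 3 panels.

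Longer Western feeding in D mice gave the most calls. In DW16 against DW8 limma called 3 of 23 probe sets, all lower in DW16, against 5.41% of all probe sets called and 4.48% called lower: both probe sets of Nr1d2 and that of Nr1d1, so 2 genes in all. At an unadjusted p under 0.05 there were 12, against 39.6% of all, and SAM called 10 (3 higher, 7 lower), against 23.6%. This comparison shares the DW16 mice with the one above. Narrow-range arrays made up 7 of the 9 in DW16 and none in DW8. Weeks of diet, age and array range therefore cannot be fully told apart here.

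Nr1d2 had a lowest, median and highest value of 9.51, 10.56 and 11.02 in DW16, against 11.73, 11.64, 12.48, 12.41 and 12.27 in DW8. The groups did not overlap, which held for 1 of the 23 probe sets and 4.16% of all. The difference was -1.60 (SE 0.22, limma adjusted p = 0.00174), or 3.03-fold lower in DW16, and it was called in 14 of 14 fits that left out 1 mouse (adjusted p of 0.000172 to 0.00730). Its dimmer probe set (1416959_at) differed by -0.69 (SE 0.14, limma adjusted p = 0.00615). Without the narrow-range arrays the Nr1d2 difference was -1.96 (limma adjusted p = 0.119, n = 2 against 5), and none of the 23 was called.

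Nr1d1 was 6.75, 8.41 and 9.19 (lowest, median, highest) in DW16, against 10.27, 10.09, 9.78, 9.58 and 9.17 in DW8, where mouse 5 lay just under the highest DW16 mouse. The difference was -1.41 (SE 0.32, limma adjusted p = 0.00923), 2.66-fold lower in DW16, and -1.51 without the narrow-range arrays (limma adjusted p = 0.115). After quantile normalization it was -1.04 and no longer called (limma adjusted p = 0.0573), while both Nr1d2 probe sets were. It was also lost in 10 of 14 fits without 1 mouse, those without any DW8 mouse or any of DW16 mice 2 to 6 (adjusted p of 0.0129 to 0.0303). All 13 immediate early genes (median -1.14), all 6 endothelial markers (median -1.03) and all 5 mesothelial markers (median -1.06) were lower in DW16 here too. So were 7 of 8 adipocyte markers (median -0.59, 2 called, list level 11.72 to 13.07 in DW16 and 13.05 to 13.23 in DW8), 6 of 7 macrophage markers (median -0.58, 1 called), 5 of 6 fibroblast and progenitor markers (median -0.44, 1 called) and 8 of 8 glucocorticoid-induced genes (median -0.48, 0 called by limma, 4 at an unadjusted p under 0.05). In contrast, 4 of 6 lymphocyte markers (median 0.13) and all 4 epithelial markers (median 0.32) were higher in DW16. The part of these lists in the Nr1d1 and Nr1d2 results was not tested.

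The remaining clock genes did not pass in DW16 against DW8. Cry1 differed by 0.99 (limma adjusted p = 0.0194), with 6.76, 8.13 and 8.64 in DW16, against 6.92, 6.67, 7.48, 7.34 and 6.36 in DW8, so 1 DW16 mouse lay within the DW8 range. After quantile normalization Cry1 was called (1.22, limma adjusted p = 0.00555). Npas2 on 1421037_at differed by 0.73 (limma adjusted p = 0.0130), with 4.22, 4.34 and 5.11 in DW16, against 4.23, 4.01, 3.60, 3.64 and 3.84 in DW8. Per2 differed by -1.91 (limma adjusted p = 0.0196, and -0.34 without the narrow-range arrays), Dbp by -1.31 (0.128) and on its dimmer probe set by -1.79 (0.0128), Per1 by -0.71 (0.0358) and Cry2 by -0.76 (0.0983, and 0.54 without the narrow-range arrays). Without those arrays Cry1 differed by 1.43, Npas2 on 1421037_at by 0.74, Dbp by -2.35 and -2.24 on its dimmer probe set, and Per1 by -0.15.

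In E mice at 16 weeks, EW16 against EC16, limma called 0 of 23 clock gene probe sets, against 2.66% of all. At an unadjusted p under 0.05 it counted 5, against 27.7% of all, and SAM called 1, higher in EW16, against 11.5%. Nr1d1 was 7.57, 8.67 and 8.62 in the narrow-range EW16 mice and 8.52, 9.72, 9.49, 9.90 and 9.44 in the others, against 8.84, 9.96, 10.42, 10.03 and 9.78 in EC16. The groups overlapped, with a difference of -0.81 (SE 0.37, limma adjusted p = 0.172) and -0.39 without the narrow-range arrays. Groups without overlap were found for 1 probe set, Per3 1441445_at (0.34, limma adjusted p = 0.0160, with a mean at the 22.7th percentile of the array), and for 4.75% of all.

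Leaving out the narrow-range EW16 arrays, a choice made with their values known, 3 of 23 were called, all higher in EW16, against 7.02% of all probe sets. Cry2 was 8.35, 9.07, 9.25, 9.02 and 9.03 in the remaining EW16 mice, against 8.18, 8.60, 8.01, 7.91 and 7.94 in EC16, a difference of 0.82 (SE 0.17, limma adjusted p = 0.00877). The lowest of these EW16 mice lay inside the EC16 range and the other 4 above it. The narrow-range EW16 mice were at 6.34, 6.53 and 6.34, and with them the difference was -0.14 (limma adjusted p = 0.885). Clock 1435775_at, a dimmer Clock probe set, was 7.20, 9.46, 9.56, 9.11 and 9.29, against 6.98, 6.20, 7.31, 7.34 and 7.34 in EC16. Its difference was 1.89 (SE 0.41, limma adjusted p = 0.00906), while Clock on its brightest probe set differed by 0.51 (limma adjusted p = 0.132). Clock 1418660_at differed by 0.19 (limma adjusted p = 0.518) and 1439314_at the other way, by -0.41 (limma adjusted p = 0.0669). The third was Per3 1441445_at (0.32, limma adjusted p = 0.00838).

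None of the 6 other group comparisons gave a call among the 23 probe sets by limma. In DW8 against DC8 1 passed an unadjusted p under 0.05 (Cry2, -0.28, limma adjusted p = 0.171) and SAM called 0, against 1.08% of all probe sets called and 19.1% at the unadjusted p. In DC16 against DC8 the unadjusted count was 1 and SAM called 0 (0% and 8.74% of all). With genotype as the question, DW8 against EW8 had 0 at the unadjusted p and 0 by SAM (0% and 4.13% of all), DC16 against EC16 1 and 0 (0.00222% and 6.27%), and DW16 against EW16 5 and 0 (0% and 14.6%), the last led by Nr1d2 at -0.84 (limma adjusted p = 0.259). In EW16 against EW8 3 passed the unadjusted p and SAM called 2, 1 in each direction (1.57%, 30.4% and 11.8% of all), and Nr1d1 differed by -1.04 (SE 0.32, limma adjusted p = 0.0527).

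The diet effects themselves were compared in 2 tests. That of D mice minus that of E mice at 16 weeks gave 0 limma calls among the 23, with 1 at an unadjusted p under 0.05 (Nr1d2, -1.03, limma adjusted p = 0.786), beside 0% and 6.31% of all probe sets. For Nr1d1 this difference was -0.69 (SE 0.50, limma adjusted p = 0.828), so the lower Nr1d1 of DW16 was not shown to be particular to D mice. The effect at 16 weeks minus that at 8 weeks in D mice gave 0 limma calls and 6 at the unadjusted p, beside 0.00444% and 27.7% of all, led by Nr1d2 (-1.43, limma adjusted p = 0.0548), Cry1 (0.96, 0.0907) and Nr1d1 (-1.27, 0.116). Without the narrow-range arrays, which left 2 DW16 mice, no clock gene probe set was called in either test. D minus E was then -1.21 for Nr1d1 (limma adjusted p = 0.158), -1.97 for Nr1d2 (0.0758) and 1.40 for Cry1 (0.0791). The effect at 16 minus 8 weeks was -1.37 for Nr1d1 (limma adjusted p = 0.533), -1.78 for Nr1d2 (0.479) and 1.40 for Cry1 (0.378). SAM was not run on these differences.

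Other genes of the pathway were read in the same fits. Of 16 listed partners and regulators 14 were measured, and of 10 outputs 9. In DW16 against DC16 limma called 0 of them, with 6 partners and 2 outputs at an unadjusted p under 0.05 (37.9% of all probe sets), and in DW16 against DW8 also 0, with 9 and 4 (39.6% of all). Arntl, which the Nr1d receptors repress, was 8.05, 8.62 and 9.33 in DW16 (lowest, median, highest), and differed by 0.32 from DC16 (limma adjusted p = 0.428) and by 0.83 from DW8 (0.0331), with 8.40, 8.47, 7.55, 7.57 and 6.94 in DW8. In EW16 against EC16 limma called 3 of the 14 partners, against 2.66% of all probe sets, all lower in EW16: Csnk1e, a kinase of PER proteins (-0.89, limma adjusted p = 0.00506), Btrc, which marks PER proteins for breakdown (-0.53, 0.00826), and Nfil3, a repressor that binds D-boxes (-1.47, 0.00858). Nfil3 averaged 9.88 ± 0.70 (SD, n = 8) in EW16 and 11.35 ± 0.08 (SD, n = 5) in EC16, and the groups did not overlap with or without the narrow-range arrays. In DW16 it lay at 8.56 to 9.99 on the narrow-range arrays and at 10.75 and 11.16 on the others, against 10.86 to 11.33 in DC16, a difference of -1.58 (limma adjusted p = 0.0148). In EW16 against EW8 Btrc was called (-0.75, limma adjusted p = 0.00675). Csnk1e and Btrc are given over all mice only, and 3 of the 8 EW16 arrays were of narrow range. No listed output was called in any of the 4 comparisons named here.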

How the data were processed

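Adipocyte RNA of 45 mice was measured on Affymetrix MG430-2.0 arrays. The authors summarised the scanned arrays with RMA and deposited log2 values for 45037 probe sets, whose gene symbols came from the platform annotation: 34945 had 1 symbol, 932 several and 9160 none. The version of RMA and any scan batch were not given in the sources used here. Replicates are separate mice. Array number limits the precision.

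Each pair of groups was fitted alone with limma 3.58.1 in R 4.3.3 (lmFit, eBayes), adjusted by Benjamini-Hochberg over all 45037 probe sets at 0.01, after the study's methods. SAM was rewritten with 100 permutations and a q under 0.01. Correlations used Python 3.11.15 and scipy 1.17.1. Both procedures were tested on simulated data. All probe sets of the members were fitted and counted. Each gene was read from the brightest of its probe sets (highest mean over all arrays) unless another is named. Likeness was listed for Nr1d1, Dbp, Per3 and Npas2 as the 5 highest and 3 lowest r among genes outside the 10 members. The members and lists were chosen with earlier results of these data known. The lists for partners, outputs, immediate early genes and cell types held 92 entries, of which 86 were measured.

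Alternatives were quantile normalization, centring, a shared spread for all groups, a trended robust fit, another threshold, the replicate number as a block, arrays of narrow range left out, each mouse left out, ranks in place of values, no group-mean removal, the mean of all probe sets of a gene and the other Npas2 probe set. Narrow-range arrays were the 10 with the lowest 95th percentiles.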

Additional observations from a re-analysis of the deposited data

Results flagged for a closer look

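Of 161 sets of values, each a member's probe set in 1 group, 14 (8.70%) held a mouse whose gap to the nearest other mouse was large for the group's range. Chance alone flags about 1 in 20 groups, and probe sets of 1 gene share their mice. DW16 mouse 1, on a narrow-range array, had 4 of them: it was the highest for Per3 1421087_at (8.53), Per3 1442243_at (5.59) and Per3 1441445_at (4.56) and the lowest for Nr1d1 (6.75). DC16 mouse 2 had 3, as the highest for Per3 1421087_at (8.35), Dbp 1418174_at (10.43) and Per2 1457350_at (6.75). EW8 mouse 6 had 3, as the highest for Cry1 (7.87), Per2 1457350_at (6.66) and Per2 1417603_at (4.94).

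The other 4 were single mice. DW16 mouse 9 was the lowest for Nr1d2 1416958_at (9.51), DC16 mouse 4 the lowest for Per3 1441445_at (3.54), EW16 mouse 7 the highest for Per3 1458176_at (5.38) and DW8 mouse 2 the highest for Clock 1439314_at (5.06). None of the 46 limma tests of a difference between diet effects passed for a member's probe set.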

How the results depend on the processing

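Over the alternatives other than leaving out a mouse, 106 counts stayed within 1.5 times their value and 30 did not. Of single values 471 kept direction and side of the threshold, 44 fell short of it, 4 newly passed and 29 changed sign; the cause was not tested. Members called in DW16 against DC16 (1) became 0 after quantile normalization or without the narrow-range arrays, and 4 at an adjusted p under 0.05. Those in EW16 against EC16 (0) became 1 with a shared spread or at 0.05, and 3 without the narrow-range arrays. Those in DW16 against DW8 (3) became 5 with a shared spread or a trended robust fit, 10 at 0.05 and 0 without the narrow-range arrays. In EW16 against EW8 there was 1 at 0.05. Leaving out 1 mouse gave 0 to 2, 0 to 1 and 1 to 7 in the first 3 of these comparisons.

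The main fits did not pair mice by replicate number. Of 49 same-numbered pairs 12 correlated over 0.1 (range -0.39 to 0.54). Mice with different numbers were not correlated for comparison, so whether the numbers pair mice was not tested. With the replicate block the calls were 2 in DW16 against DC16, 5 in DW16 against DW8 and 1 for the effect at 16 minus 8 weeks, and over the same mice without the block 2, 6 and 1. With and without the block these mice changed the sign of Per3 (-0.0644) and Dbp (-0.32) in DW8 against DC8, Dbp (0.36) in DW16 against DC16, and Per3 (-0.21), Nr1d2 (-0.31) and Dbp (-0.0031) in EW16 against EC16.

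Other signs that changed were Npas2 in DW16 against DC16 with quantile normalization (-0.0454), centring (-0.0118) or without the narrow-range arrays (-0.0356), Dbp there with quantile normalization (0.25), Per2 (0.51) and Cry2 (0.21) there without those arrays, and Per1 (0.31), Per2 (0.68), Cry1 (-0.28) and Cry2 (0.82) in EW16 against EC16 without them. In the narrow-range mice r was 0.375 for Clock with Per2, 0.213 for Clock with Per3, 0.480 for Clock with Cry2, -0.0018 for Per1 with Per3, -0.398 for Per1 with Nr1d2, -0.332 for Per1 with Dbp and -0.0696 for Cry2 with Dbp.

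Opposed pairs with a negative r that passed (11) became 17 with the mean of all probe sets or the other Npas2 probe set, 0 in the narrow-range mice and 9 to 13 without 1 mouse. The 1 positive opposed pair became 0 with ranks, without removing group means or in the narrow-range mice, and 0 to 1 without 1 mouse. The 1 negative same-phase pair became 0 with each of these, with quantile normalization, the mean of all probe sets or the other Npas2 probe set, and 0 to 1 without 1 mouse. The 16 positive same-phase pairs became 0 in the narrow-range mice and 16 to 17 without 1 mouse.

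Leaving out 1 mouse changed the sign of Clock in DW8 against DC8 (-0.0287 to 0.23), of Npas2 (-0.0202 to 0.12), Per3 (-0.48 to 0.22) and Dbp (-0.49 to 0.60) in DW16 against DC16, and in EW16 against EC16 of Clock (-0.0077 to 0.36), Per1 (-0.32 to 0.0081), Per2 (-0.56 to 0.0992), Per3 (-0.13 to 0.69), Cry1 (-0.15 to 0.17), Cry2 (-0.32 to 0.0992), Nr1d2 (-0.0406 to 0.30) and Dbp (-0.26 to 1.11).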
